A study of Rattus norvegicus with 12 samples.

Results

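Genes of the rat major histocompatibility complex (MHC) and of antigen presentation were examined in the calvaria, the flat bone of the skull vault, a day after a surgical defect was cut. They were chosen by the gene name that the array files print for each probe. The rule took every name starting with RT1-, the rat MHC, and the names B2m, Tap1, Tap2, Tapbp, Psmb8, Psmb9, Psmb10, Psme1, Psme2, Cd74, Ciita, Nlrc5, Ctss, Erap1, Cd80, Cd86 and Cd40. This gave 90 of the 45598 rat probes on the array, for 65 of 34912 gene names, of which 48 were RT1- genes. Of these, 77 probes for 56 genes passed the background filter (well above background on 4 or more of 12 arrays of any group) and were tested. In the GRCr8 gene table of RefSeq, which held 62 of the 65 symbols, 50 genes lay on chromosome 20, where the rat MHC is.

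The study compared 3 groups of 4 arrays, all from rats 10 weeks old and all sampled at 24 h. In the laser group, a rectangle of 8 mm by 3 mm was ablated with 3 strokes of an Er:YAG laser (20 Hz, 127 mJ per pulse, about 2 mm/s), an infrared laser whose light is taken up strongly by water. In the bur group, a rotating bur, moved at about 0.75 mm/s, drilled a rectangle of that size. Control bone lost only its periosteum, the outer membrane, and was not cut. The labels give no strain and do not say whether each sample is an animal of its own. The p-values therefore measure the spread between these samples, which may be technical.

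MHC class I molecules are made by nearly every nucleated cell and show fragments of the cell's own proteins to CD8 T cells. The immunoproteasome cuts the fragments, the Tap transporter carries them into the endoplasmic reticulum, and tapasin helps to load them onto a class I heavy chain paired with B2m. MHC class II molecules are made mainly by macrophages, dendritic cells and B cells, are guided by the invariant chain Cd74 and present endocytosed material to CD4 T cells. Ciita is the master switch of class II transcription, Nlrc5 is its counterpart for class I, and interferon gamma raises both. In injured bone, cells of the macrophage lineage clear debris and can present antigen.

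Promoters are shown for genes on which the results below turn. Of the 65 genes, 52 had an entry in the RefSeq promoter table (GRCr8, 250 bases before to 50 after the start site). Both strands were searched for ATTGG (the core of the CCAAT box and of the class II Y box), TTCNNNGAA (the STAT core), TGACG (the core of the X2 box) and the interferon-stimulated response element core bound by interferon regulatory factors. Capitals mark every match, and no matches of different motifs overlapped. RT1-DMa and RT1-Db2 are class II genes, and Ctss cuts the invariant chain. RT1-A1 and RT1-A2 are classical class I heavy chains whose probes moved in opposite directions. Psme2 and Tap1 serve class I peptide supply.
RT1-DMa (chr20:4712286-4712585, minus strand): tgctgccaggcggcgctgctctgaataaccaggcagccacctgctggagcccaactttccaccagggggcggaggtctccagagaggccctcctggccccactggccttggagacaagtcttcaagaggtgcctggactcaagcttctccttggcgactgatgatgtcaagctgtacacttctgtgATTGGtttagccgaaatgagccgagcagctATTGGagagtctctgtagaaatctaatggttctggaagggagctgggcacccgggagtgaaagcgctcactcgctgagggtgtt
RT1-Db2 (chr20:4541546-4541845, minus strand): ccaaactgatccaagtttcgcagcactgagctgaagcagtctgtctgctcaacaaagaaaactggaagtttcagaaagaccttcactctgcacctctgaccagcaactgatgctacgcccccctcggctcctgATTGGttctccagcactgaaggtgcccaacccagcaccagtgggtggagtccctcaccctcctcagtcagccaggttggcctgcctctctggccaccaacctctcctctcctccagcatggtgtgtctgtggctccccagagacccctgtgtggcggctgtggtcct
Ctss (chr2:185775146-185775445, plus strand): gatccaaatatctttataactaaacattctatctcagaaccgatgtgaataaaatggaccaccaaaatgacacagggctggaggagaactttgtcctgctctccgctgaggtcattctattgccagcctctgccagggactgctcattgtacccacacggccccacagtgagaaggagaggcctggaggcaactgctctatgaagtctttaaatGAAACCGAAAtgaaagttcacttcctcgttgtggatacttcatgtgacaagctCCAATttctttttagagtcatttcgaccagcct
RT1-A1 (chr20:4906959-4907258, plus strand): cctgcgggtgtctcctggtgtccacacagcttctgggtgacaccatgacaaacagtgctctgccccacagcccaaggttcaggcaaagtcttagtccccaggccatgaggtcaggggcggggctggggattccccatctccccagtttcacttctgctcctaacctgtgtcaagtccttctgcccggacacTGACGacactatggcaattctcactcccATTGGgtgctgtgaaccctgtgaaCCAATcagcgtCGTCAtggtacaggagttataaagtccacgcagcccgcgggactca
RT1-A2 (chr20:4872621-4872920, plus strand): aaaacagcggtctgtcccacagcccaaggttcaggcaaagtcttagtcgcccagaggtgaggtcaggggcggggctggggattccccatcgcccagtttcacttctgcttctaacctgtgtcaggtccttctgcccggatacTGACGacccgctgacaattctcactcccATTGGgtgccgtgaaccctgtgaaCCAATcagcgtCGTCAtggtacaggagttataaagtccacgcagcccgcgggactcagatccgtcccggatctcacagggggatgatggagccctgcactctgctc
Psme2 (chr15:33052702-33053001, minus strand): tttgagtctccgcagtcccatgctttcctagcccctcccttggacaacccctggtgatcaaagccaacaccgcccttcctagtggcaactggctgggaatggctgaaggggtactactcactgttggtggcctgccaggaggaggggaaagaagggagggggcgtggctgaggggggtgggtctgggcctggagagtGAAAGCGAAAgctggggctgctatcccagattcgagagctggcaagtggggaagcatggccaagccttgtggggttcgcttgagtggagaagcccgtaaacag
Tap1 (chr20:4668494-4668793, minus strand): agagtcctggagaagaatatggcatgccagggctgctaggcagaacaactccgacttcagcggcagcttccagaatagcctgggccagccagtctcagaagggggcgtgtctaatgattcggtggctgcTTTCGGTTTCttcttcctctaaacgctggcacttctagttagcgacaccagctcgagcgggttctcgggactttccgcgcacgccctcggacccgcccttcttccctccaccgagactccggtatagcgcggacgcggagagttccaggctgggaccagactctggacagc

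ATTGG was present in 11 of 11 class II promoters and in 24 of 39 class I promoters, against 37.5% of all 33469 promoters in the table. In RT1-DMa it occurs at 2 places, and RT1-Db2 holds it once. The interferon regulatory factor core was present in 10 of 39 class I promoters and in 1 of 11 class II promoters, that of Ctss, against 3.92% of all. TGACG was found in 11 of 39 class I promoters and 1 of 11 class II promoters, against 21.2% of all, and TTCNNNGAA in 3 of 39 and 0 of 11, against 8.87% of all. Without gaps, the RT1-A1 and RT1-A2 windows were identical at 182 of 251 aligned bases (72.5%), with the same 4 matches in the same order. The windows of Tap1 and its neighbour Psmb9, which are read in opposite directions, share 44 bases. A match describes these letters only.

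Technical features of the series bear on the members as follows. All laser arrays lay on slide 2 and all bur and control arrays on slide 1, so slide and laser treatment cannot be told apart. Bur and control were compared within a slide, but there all control arrays lay in row 1 and all bur arrays in row 2. Row and bur treatment therefore cannot be told apart either. The median processed signal before normalisation was 55.6 to 81.9 on laser arrays, 18.6 to 28.3 on bur arrays and 16.5 to 43.2 on control arrays. Between 67.5% and 72.0% of spots were well above background on laser arrays, 57.0% to 59.9% on bur arrays and 57.2% to 64.4% on control arrays. Control arrays 1 and 4 read nerve and glia transcripts far above the others: the summed signal of 6 neural markers was 301 to 478 on laser arrays, 162 to 1144 on bur arrays and 497 to 11308 on control arrays. Of 8 osteoblast and osteocyte markers, all tested, 4 were higher and 0 lower in laser against control, 2 and 0 in bur against control, and 0 were called in laser against bur. Their summed signal was 162054 to 241211 on laser arrays, 125481 to 194847 on bur arrays and 84940 to 164211 on control arrays. Of 4 skeletal muscle markers tested, 2 were higher in laser against control, 1 was higher in bur against control, and 2 were higher and 1 lower in laser against bur. Over all tested probes, 18.9% were higher in laser against control and 12.6% in bur against control. In laser against bur, 13.4% were higher and 13.9% lower. The part of nerve, bone and muscle cells in the results on MHC genes was not tested. In bulk bone, fewer cells of a type and less RNA per cell cannot be told apart. Levels below are log2 of the quantile-normalised signal and differences are log2 differences between group means. A probe was called when its limma Benjamini-Hochberg adjusted p, over all 27194 tested probes of that comparison, was below 0.05. A gene is represented by its brightest tested probe unless another probe is named.

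Some class II genes rose after either treatment, and none fell against control. Of 11 class II probes tested, 4 were higher after the bur and 0 lower, with a median log2 difference of 0.81, against 0.10 over all tested probes, of which 20.4% were called (12.6% higher, 7.84% lower). After the laser, 4 were higher and 0 lower than in control (median 0.48, against 0.05 over all probes, of which 32.8% were called, 18.9% higher and 13.9% lower). The 36.4% of class II probes called in laser against control is near that 32.8%. Between the treatments, 1 was higher and 2 were lower after the laser than after the bur (median -0.25, against -0.06 over all probes, of which 27.3% were called, 13.4% higher and 13.9% lower). By gene, 4 of 10 class II genes were higher than in control after the bur and 3 of 10 after the laser. In a fit of 1 probe per gene, 4501 of all 20789 genes were called in bur against control and 7349 in laser against control. The comparisons with control share the control arrays. RT1-Ba, RT1-DOa and RT1-Ha were below the background filter.

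RT1-DMa and RT1-DMb encode the chains of the DM peptide editor, which swaps the invariant chain remnant for antigenic peptide in endosomes. RT1-DMa read 9.04, 9.03, 8.92 and 9.60 on laser arrays 1 to 4, 9.94, 9.27, 9.46 and 9.49 on bur arrays 1 to 4, and 7.58, 7.66, 8.44 and 8.29 on control arrays 1 to 4. Every laser and bur array was above every control array. The gene rose 2.92-fold after the bur (95% interval 2.03 to 4.21, adjusted p = 0.00162) and 2.23-fold after the laser (1.55 to 3.21, adjusted p = 0.00363). Laser and bur arrays overlapped, and their log2 difference of -0.39 did not pass (adjusted p = 0.255).

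Its partner RT1-DMb read 9.70, 9.78, 9.50 and 10.05 on laser arrays 1 to 4, 10.63, 10.51, 10.28 and 10.50 on bur arrays, and 9.20, 9.14, 9.84 and 9.93 on control arrays. Here the bur arrays stood above both other groups, and laser and control arrays overlapped. RT1-DMb rose 1.93-fold in bur against control (1.42 to 2.63, adjusted p = 0.00777), whereas the laser minus control difference was 0.23 (adjusted p = 0.414). It was 1.65-fold lower in laser than in bur (log2 difference -0.72, SE 0.20, adjusted p = 0.0219), a call lost without laser array 1 or 3 (adjusted p = 0.0565 to 0.0655).

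The class II beta chain RT1-Db2 read 8.74, 8.28, 8.39 and 8.56 on laser arrays, 8.55, 7.98, 8.46 and 8.57 on bur arrays, and 7.27, 7.01, 8.16 and 7.61 on control arrays. The laser arrays were all above the control arrays, while bur array 2 lay below control array 3. It rose 1.97-fold after the laser (1.37 to 2.83, adjusted p = 0.00916) and 1.84-fold after the bur (1.28 to 2.64, adjusted p = 0.0240). The bur call was lost without bur array 1, 3 or 4 or control array 1 or 2 (adjusted p = 0.0523 to 0.0667), and without the neural-rich control arrays 1 and 4 together both calls were lost (adjusted p = 0.127 for the bur and 0.0582 for the laser).

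The remaining class II chains did not pass in any comparison. RT1-Da, the alpha chain of the RT1-D molecule, read 10.80, 10.25, 9.81 and 9.92 on laser arrays, 10.32, 10.11, 10.62 and 10.72 on bur arrays and 9.87, 9.68, 10.25 and 9.96 on control arrays. RT1-Db1, its beta chain, read 10.85, 10.18, 10.31 and 10.41 on laser arrays, 10.89, 10.40, 11.07 and 11.10 on bur arrays and 9.95, 9.92, 10.83 and 10.61 on control arrays. RT1-Bb, the beta chain of the RT1-B molecule, read 8.41, 8.19, 8.49 and 8.65 on laser arrays, 8.78, 8.20, 8.93 and 9.15 on bur arrays and 6.96, 7.17, 8.70 and 9.01 on control arrays. All groups overlapped for these chains. In RT1-Db1 and RT1-Bb, control arrays 1 and 2 were low and control arrays 3 and 4 lay within the range of the treated arrays. Control arrays 1 and 2 also read below 3 and 4 in RT1-Da, RT1-DMa, RT1-DMb, RT1-Db2, Cd74 and the brighter Ciita probe. Among class I genes, the same held for RT1-A1, RT1-EC2, RT1-N3, B2m, Nlrc5, Psme1, Psme2, Psmb8, Psmb9, Tap1 and Tap2. It did not hold for Ctss, RT1-A2, RT1-CE15, RT1-N2, RT1-M6-2, Tapbp, Cd86 or the brightest Cd40 probe. Before normalisation, the median signal was 20.6 and 16.5 on control arrays 1 and 2, and 34.7 and 43.2 on 3 and 4. The source of this split was not tested. The bur minus control differences were 0.50 for RT1-Da, 0.54 for RT1-Db1 and 0.81 for RT1-Bb (adjusted p = 0.145, 0.153 and 0.203). RT1-DOb, part of the inhibitor of the DM editor, differed by -0.03 to 0.18 across the comparisons.

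Among the genes that handle class II, Ctss, cathepsin S, which trims the invariant chain, read 10.86, 10.97, 10.80 and 11.20 on laser arrays, 11.96, 11.74, 11.65 and 11.70 on bur arrays and 11.21, 9.86, 11.07 and 10.84 on control arrays. All bur arrays were above all others. Ctss rose 2.02-fold in bur against control (1.38 to 2.97, adjusted p = 0.0164) and was 1.74-fold lower in laser than in bur (log2 difference -0.80, SE 0.25, adjusted p = 0.0362). The laser against bur call was lost without any 1 bur array and without laser array 1, 2 or 3 (adjusted p = 0.0572 to 0.0880). The bur against control call did not pass when only those arrays were fitted (adjusted p = 0.0575).

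Cd74, the invariant chain, read 12.32, 11.82, 11.93 and 11.97 on laser arrays, 11.60, 11.24, 11.98 and 11.80 on bur arrays and 11.14, 10.79, 11.75 and 11.62 on control arrays. Laser arrays lay above all control arrays, and bur arrays overlapped both. It rose 1.61-fold in laser against control (1.13 to 2.29, adjusted p = 0.0411), a call lost without any 1 laser array, bur array 1 or 4, or control array 1 or 2 (adjusted p = 0.0505 to 0.115). That call was also lost without the filter on dim probes, with array weights or with only the compared groups fitted (adjusted p = 0.0549 to 0.0580). Without control arrays 1 and 4 it did not pass either (adjusted p = 0.0918). The bur minus control difference was 0.33 (adjusted p = 0.345).

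Ciita, the class II transactivator, had a pair of tested probes. The brighter read 7.43, 7.15, 7.11 and 7.22 on laser arrays, 6.97, 6.26, 7.43 and 7.40 on bur arrays and 4.56, 5.93, 7.35 and 6.78 on control arrays, and passed in no comparison. Its control arrays spread over a range that covered most of the treated values. The dimmer probe (A_64_P010569) read 5.56, 4.92, 4.92 and 4.89 on laser arrays, 4.35, 3.21, 4.24 and 4.11 on bur arrays and 3.24, 2.22, 4.13 and 3.20 on control arrays. On that probe the laser arrays were above all others, with log2 differences of 1.88 against control (adjusted p = 0.00297) and 1.09 against bur (adjusted p = 0.0493). It was well above background on 4 laser, 2 bur and 2 control arrays, so these differences rest in part on signals below background. This probe is the 1 class II probe called higher in laser against bur, and it is among the 4 called higher in laser against control.

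**Figure D1:**
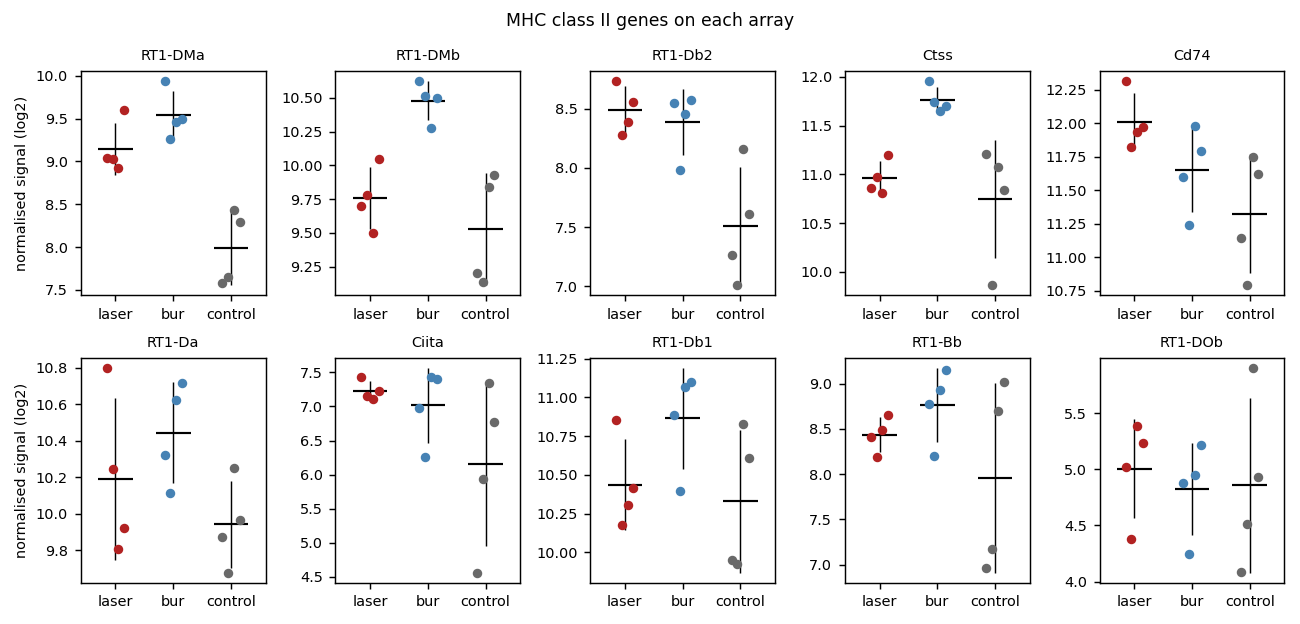
Log2 normalised signal of the 10 tested class II genes on each of 4 laser, 4 bur and 4 control arrays (points), with the group mean (horizontal bar) and SD (vertical line). RT1-DMa is above control on every laser and bur array, with bur minus control 1.55 and laser minus control 1.16, while RT1-DMb and Ctss stand high on the bur arrays.

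Markers of macrophages, dendritic cells and B cells were read in the same comparisons. Of 9 monocyte and macrophage markers, 7 were higher and 0 lower in bur against control, 4 were higher and 0 lower in laser against control, and 0 were higher and 5 lower in laser against bur. Over all tested probes, 12.6% were higher in bur against control, 18.9% were higher in laser against control and 13.9% were lower in laser against bur. Monocyte and macrophage markers are taken first. The summed signal of these 9 markers was 42542 to 64605 on laser arrays, 81444 to 106719.7 on bur arrays and 47112 to 78978 on control arrays. Cd68, a lysosomal macrophage protein, read 11.41 ± 0.20 on laser, 11.59 ± 0.13 on bur and 10.29 ± 0.51 on control arrays (SD, n = 4 each). Of 6 dendritic cell markers tested, Batf3, a factor needed by cross-presenting dendritic cells, was higher in both treated groups (1.58 after the bur, 0.85 after the laser), lower in laser than in bur (-0.73), and the other 5 did not pass in any comparison. Summed over the list, dendritic markers read 543 to 703 on laser, 652 to 886 on bur and 445 to 730 on control arrays, and Xcr1, Ccr7 and Siglech were below the filter. None of 7 B cell markers was higher in any comparison, and Pax5, a B cell transcription factor, was lower after the laser (-0.97 against control, -0.73 against bur). B cell markers summed to 1064 to 1968 on laser, 773 to 2166 on bur and 1158 to 2442 on control arrays, and Vpreb1 was below the filter. The part of any of these cells in the class II result was not tested.

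Class I genes were called most often in laser against bur. In laser against bur, 18 of the 61 class I probes tested were lower and 6 higher, with a median of -0.31, where 13.9% of all probes were lower and 13.4% higher. In laser against control 12 were lower and 6 higher (median -0.07, with 13.9% lower and 18.9% higher over all probes). In bur against control 2 were lower and 4 higher (median 0.18, with 7.84% lower and 12.6% higher over all probes), and this count is below the background share. The 2 lower probes are both of RT1-T24-4 and have the same 60-base sequence. The 6 higher probes of each laser comparison include RT1-CE5, which was above background on the laser arrays only. Dim probes also count in the shares over all probes. Of the 18644 probes well above background on all arrays, 3811 were lower and 2219 higher in laser against bur (median -0.13). In laser against control, 3713 of them were lower and 3391 higher. The class I probes among them had 22 lower and 5 higher against bur, and 12 lower and 5 higher against control. By gene, 17 of 43 were lower and 4 higher in laser against bur, 11 lower and 4 higher in laser against control, and 0 lower and 2 higher in bur against control.

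The groups were also compared without a test, by whether every array of one lay above or below every array of the other. In laser against bur, 5 class I probes lay above and 21 below, against 15.5% and 19.3% of all tested probes. In laser against control, 7 lay above and 13 below, against 19.6% and 15.1% of all. In bur against control, 5 lay above and 3 below, against 12.7% and 8.22% of all. Of the 11 class II probes, 3 lay above and 0 below in bur against control, 4 and 0 in laser against control, and 1 and 2 in laser against bur.

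The class I counts hung on single arrays. The 24 calls of laser against bur became 15, 11 and 13 without laser array 1, 2 and 3 in turn. The 18 calls of laser against control became 8, 7 and 9 without those laser arrays, and 10 each without control array 2 or 4. The excess of lower over higher probes in laser against control turned without control array 3 (8 higher and 5 lower) and without laser array 3 (5 higher and 4 lower). The 6 calls of bur against control became 2 and 1 without bur array 1 and 4, and 3 and 2 without control array 1 and 2. A fit without control arrays 1 and 4 together left 24 calls in laser against bur, 10 in laser against control and 2 in bur against control. For class II, the 4 calls of bur against control became 2 when only those arrays were fitted, the 4 of laser against control became 2 without control arrays 1 and 4, and the 3 calls of laser against bur became 0, 1 and 0 without laser array 1, 2 and 3 and 1 without any of the 4 bur arrays. Scaling to the 75th percentile in place of quantile normalisation moved the share of all called probes that were higher in bur against control to 39.0%, against 61.6%. Under it 17 class I probes were lower and 5 higher in laser against bur, and 2 were lower and 1 higher in bur against control.

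**Figure D2:**
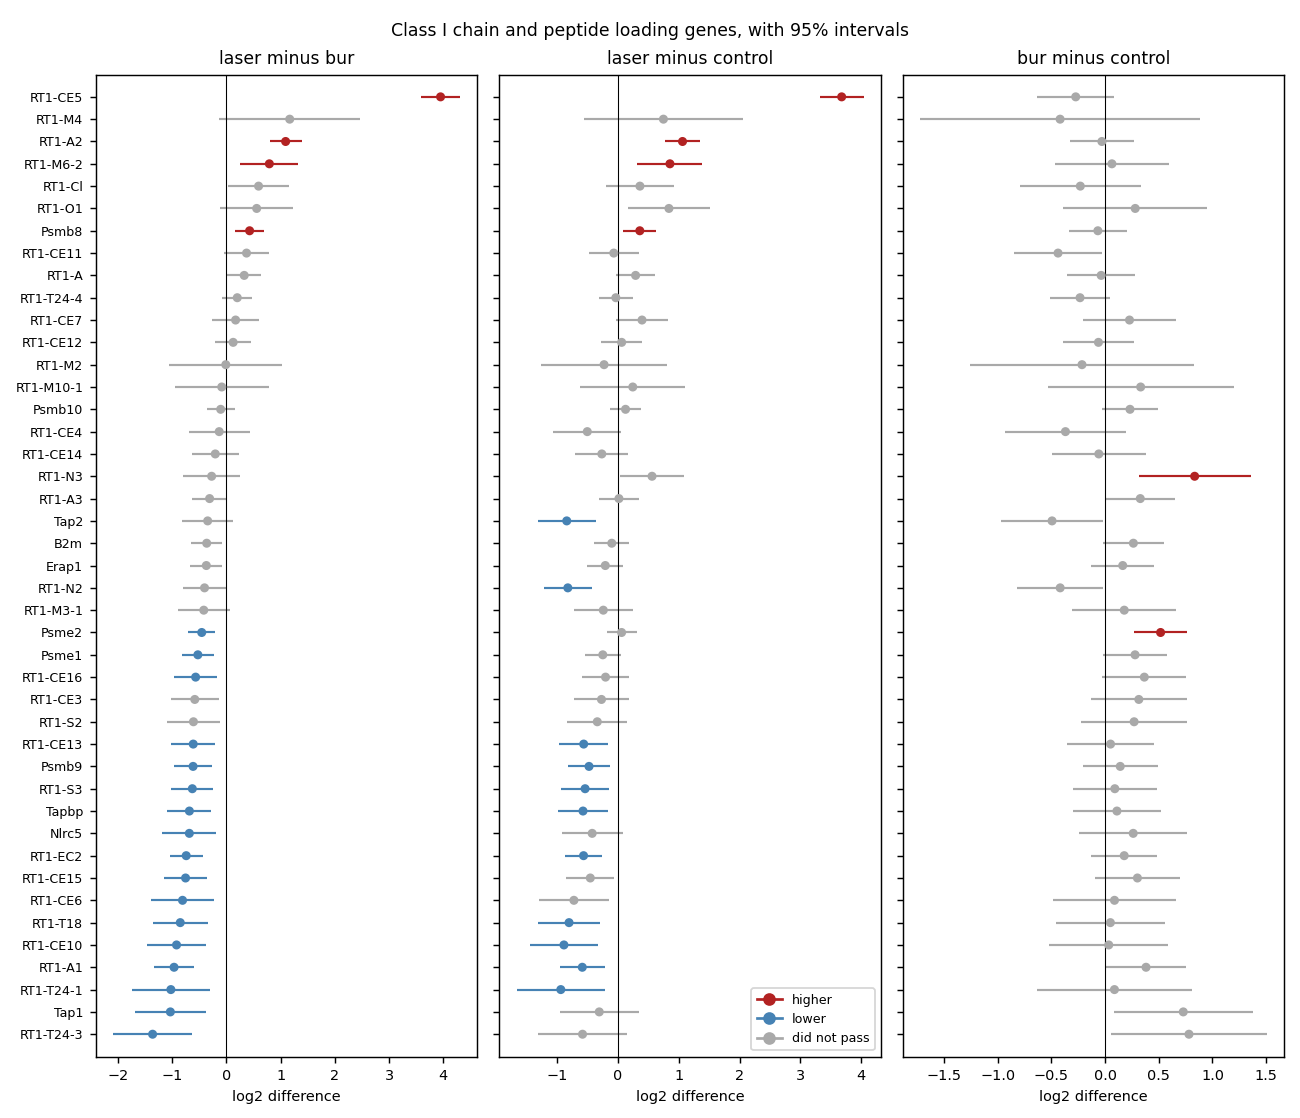
Log2 differences of the 43 tested class I chain and peptide loading genes in the 3 comparisons (points, with 95% intervals of the limma fit), ordered by laser minus bur. In the first panel 17 genes are called lower, the lowest being RT1-T24-3 at -1.36, and 4 higher, RT1-CE5 among them. The points and intervals of RT1-CE5 rest on bur and control signals below background, so only a bound holds for its laser differences. In the last panel RT1-N3 and Psme2 are called higher.

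The classical heavy chains RT1-A1 and RT1-A2 went in opposite directions after the laser. RT1-A1 read 14.68, 14.81, 14.62 and 14.997 on laser arrays, 15.84, 15.88, 15.66 and 15.59 on bur arrays and 15.05, 15.13, 15.62 and 15.65 on control arrays. The laser arrays were below every other array. It was 1.95-fold lower in laser than in bur (log2 difference -0.96, SE 0.17, adjusted p = 0.00163) and 1.499-fold lower than in control (-0.58, SE 0.17, adjusted p = 0.0208). The control call was lost without laser array 1 or 3 or control array 3 or 4 (adjusted p = 0.0534 to 0.0586).

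RT1-A2 read 14.06, 13.98, 13.75 and 14.17 on laser arrays, 12.86, 13.10, 12.74 and 12.89 on bur arrays and 13.10, 12.81, 12.89 and 12.90 on control arrays. Laser arrays were above every other array, and bur and control arrays overlapped. It rose 2.13-fold in laser against bur (1.74 to 2.62, adjusted p = 0.000152) and 2.09-fold in laser against control (1.70 to 2.56, adjusted p = 0.000163). The bur minus control difference was -0.03 (adjusted p = 0.901). For RT1-A, another classical chain, and RT1-A3, the brightest probe passed in no comparison, with laser minus bur differences of 0.33 and -0.31.

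RT1-EC2, a class I chain, read 13.13, 13.15, 12.98 and 13.30 on laser arrays, 14.17, 13.89, 13.63 and 13.83 on bur arrays and 13.60, 13.64, 13.85 and 13.72 on control arrays. The laser arrays were below all others. It was 1.67-fold lower in laser than in bur (-0.74, SE 0.14, adjusted p = 0.00262) and 1.48-fold lower than in control (-0.56, SE 0.14, adjusted p = 0.00998). Its other 2 tested probes gave -0.51 and -0.29 against bur and passed in no comparison.

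RT1-CE15 read 11.13, 10.91, 10.86 and 11.23 on laser arrays, 12.30, 11.75, 11.40 and 11.70 on bur arrays and 11.50, 11.41, 11.54 and 11.49 on control arrays. All laser arrays were below all others, and the call was against bur (-0.75, SE 0.18, adjusted p = 0.00975). In the authors' deposited values the difference was -0.26 (adjusted p = 0.309). The dimmer probe of RT1-CE15 went the other way, 0.92 in laser against control (adjusted p = 0.0303).

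RT1-N2, a nonclassical chain, read 8.24, 7.83, 8.08 and 8.05 on laser arrays, 8.12, 8.44, 8.45 and 8.80 on bur arrays and 9.10, 9.12, 8.65 and 8.61 on control arrays. Laser arrays were below all control arrays and overlapped the bur arrays. The gene was 1.77-fold lower in laser than in control (-0.82, SE 0.18, adjusted p = 0.00535). The nonclassical RT1-M6-2 read 11.13, 10.91, 11.08 and 11.21 on laser arrays, 11.02, 10.35, 9.89 and 9.91 on bur arrays and 10.31, 9.95, 10.05 and 10.59 on control arrays. Bur array 1 lay within the range of the laser arrays, and the other bur arrays and all control arrays were below that range. The gene was 1.81-fold higher in laser than in control (adjusted p = 0.0193), and 1.73-fold higher than in bur (adjusted p = 0.0322), the last lost without any 1 laser array or bur array 2, 3 or 4 (adjusted p = 0.0501 to 0.0878).

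B2m, the light chain shared by class I molecules, read 14.01, 14.10, 13.96 and 14.06 on laser arrays, 14.54, 14.54, 14.26 and 14.23 on bur arrays and 14.11, 13.94, 14.34 and 14.12 on control arrays. It passed in no comparison, with differences of -0.36 in laser against bur (adjusted p = 0.0587), -0.10 in laser against control and 0.26 in bur against control. The laser arrays were all below the bur arrays, as they were for 19.3% of all tested probes.

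The brightest probe did not always speak for a gene. In 18 genes with more than 1 tested probe, 21 further probes had the call of the brightest probe in 18 cases for bur against control, 9 for laser against control and 7 for laser against bur, and the opposite call in 0. RT1-T24-4 did not pass on its brightest probe (laser minus bur 0.20). Its other 2 probes have an identical 60-base sequence and so measure 1 target. They were higher in laser than in bur, by 0.79 and 0.85 (adjusted p = 0.0156 and 0.00316), and lower in bur than in control, by -0.68 and -0.63 (adjusted p = 0.0369 and 0.0199). A dim second probe of RT1-A3 was higher in laser and in bur than in control, by 0.85 and 1.02 (adjusted p = 0.0427 and 0.0304). RT1- class I genes are close copies of each other, so a probe can also take up transcripts of a neighbour. In ungapped alignments of the member probes with each other, 3 pairs for different genes matched at 50 or more of 60 bases. These were RT1-CE16 with a dimmer probe of RT1-EC2 (55 bases), RT1-A with RT1-CE5 (51) and RT1-CE12 with a probe of RT1-CE7 (51). Probes were not aligned with transcripts, so this count does not measure how far a probe takes up those of another gene. Values of single RT1- class I genes are uncertain by an amount that was not measured.

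RT1-N3 was the class I chain called in bur against control, with 7.46, 6.94, 6.70 and 7.22 on bur arrays and 5.76, 5.996, 6.69 and 6.55 on control arrays. Bur array 3 was just above control array 3. It rose 1.78-fold (adjusted p = 0.0293), and its second probe gave 0.64 (adjusted p = 0.0231). The call was lost without bur array 1 or 4 or control array 1 or 2 (adjusted p = 0.0687 to 0.0760). It was also lost with 75th percentile scaling, with only the compared groups fitted, with array weights, with the replicate block, in the authors' deposited values and without control arrays 1 and 4 together (adjusted p = 0.0518 to 0.110). Among the tested class I genes, the lowest laser minus bur difference was that of RT1-T24-3, with 10.67, 10.28, 9.77 and 10.50 on laser arrays against 12.25, 12.43, 10.92 and 11.07 on bur arrays (-1.36, adjusted p = 0.0110). In it, bur arrays 1 and 2 stood apart from bur arrays 3 and 4. Among 33 class I chains tested, 11 were lower and 3 higher in laser against bur, where 13.9% of all tested probes were lower and 13.4% higher. The 3 higher chains include RT1-CE5, which was above background on the laser arrays only.

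Several genes of class I peptide supply were lower after the laser than after the bur. By probe, 6 of 14 were lower and 1 higher in laser against bur, where 13.9% of all tested probes were lower and 13.4% higher. Of 10 genes, 6 were lower and 1 higher in laser against bur, 3 lower and 1 higher in laser against control, and 0 lower and 1 higher in bur against control. Psme2, a subunit of the proteasome activator that interferon induces, read 12.36, 12.26, 12.20 and 12.23 on laser arrays, 12.93, 12.63, 12.61 and 12.70 on bur arrays and 12.18, 12.15, 12.22 and 12.26 on control arrays. The bur arrays were above all others. It rose 1.43-fold in bur against control (1.21 to 1.70, adjusted p = 0.00880) and was 1.37-fold lower in laser than in bur (-0.45, SE 0.11, adjusted p = 0.0121). Its partner Psme1 read 11.78, 11.76, 11.87 and 11.76 on laser arrays, 12.19, 12.23, 12.39 and 12.48 on bur arrays and 11.87, 11.84, 12.16 and 12.30 on control arrays. Psme1 was 1.44-fold lower in laser than in bur (-0.53, SE 0.14, adjusted p = 0.0146) and passed in neither comparison with control.

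The immunoproteasome subunits did not move together. Psmb9 read 10.43, 10.21, 9.92 and 10.43 on laser arrays, 10.98, 10.85, 10.66 and 10.96 on bur arrays and 10.57, 10.52, 10.81 and 10.98 on control arrays. It was 1.53-fold lower in laser than in bur (-0.61, SE 0.16, adjusted p = 0.0151), with all laser arrays below all others. Its call against control (-0.47, adjusted p = 0.0408) was lost without laser array 2 or 3, bur array 2 or 4, or control array 3 or 4 (adjusted p = 0.0511 to 0.114). Psmb8 read 11.53, 11.42, 11.21 and 11.62 on laser arrays, 11.06, 10.999, 11.01 and 10.99 on bur arrays and 10.998, 10.97, 11.20 and 11.17 on control arrays. On that probe it was 1.35-fold higher in laser than in bur (adjusted p = 0.0238) and 1.28-fold higher than in control (adjusted p = 0.0418), whereas its second probe gave 0.01 and -0.07. The first of these calls was lost without laser array 1, 2 or 4 or bur array 2 or 4 (adjusted p = 0.0525 to 0.0709). The second was lost without laser array 1, 2 or 4, bur array 2, 3 or 4, or control array 1, 2 or 4 (adjusted p = 0.0535 to 0.112). With 75th percentile scaling the first call did not pass (adjusted p = 0.0509). The second was also lost with only the compared groups fitted, with the replicate block and without control arrays 1 and 4 (adjusted p = 0.0602 to 0.115). Psmb10 differed by -0.11 to 0.23 and passed in no comparison.

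The transporter chains and tapasin were each lower after the laser in at least 1 comparison. Tap1, a chain of the peptide transporter, read 5.05, 5.35, 5.17 and 5.68 on laser arrays, 6.88, 6.31, 5.99 and 6.21 on bur arrays and 4.90, 5.33, 6.24 and 6.01 on control arrays. It was 2.05-fold lower in laser than in bur (-1.03, SE 0.30, adjusted p = 0.0240), and its second probe gave -0.54 (adjusted p = 0.338). The call was lost without bur array 1 or laser array 1, 2 or 3 (adjusted p = 0.0505 to 0.0683). In the authors' deposited values the difference was -0.43 and did not pass (adjusted p = 0.0844). Tap2, the other chain, read 8.90, 8.93, 8.66 and 9.29 on laser arrays, 9.51, 9.22, 9.32 and 9.11 on bur arrays and 9.18, 9.76, 10.16 and 10.03 on control arrays. It was 1.79-fold lower in laser than in control (-0.84, SE 0.22, adjusted p = 0.0120) although laser array 4 lay above control array 1, and its second probe gave -0.17 (adjusted p = 0.655).

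Tapbp, tapasin, read 7.68, 7.47, 7.61 and 8.03 on laser arrays, 8.53, 8.27, 8.28 and 8.43 on bur arrays and 7.79, 8.47, 8.57 and 8.25 on control arrays. It was 1.60-fold lower in laser than in bur (-0.68, SE 0.19, adjusted p = 0.0189), lost without laser array 2 or 3 (adjusted p = 0.0513 to 0.0581). In the authors' deposited values that difference was -0.46 and did not pass (adjusted p = 0.0841). Its call against control (-0.57, adjusted p = 0.0350) was lost without laser array 1, 2 or 3 or control array 2, 3 or 4 (adjusted p = 0.0632 to 0.100). With only the compared groups fitted, or with the replicate block, this call did not pass either (adjusted p = 0.0681 and 0.0552). Nlrc5, the class I transactivator, read 9.31, 9.13, 9.21 and 9.48 on laser arrays, 10.04, 10.11, 9.91 and 9.80 on bur arrays and 9.14, 9.36, 10.20 and 10.12 on control arrays. All laser arrays were below all bur arrays, while control arrays 1 and 2 read like the laser arrays and 3 and 4 like the bur arrays. The laser minus bur difference was -0.68 (SE 0.23, adjusted p = 0.0453) and the call was lost without any 1 laser or bur array (adjusted p = 0.0589 to 0.109). It was also lost without the filter on dim probes and with the replicate block (adjusted p = 0.0582 and 0.0627). Erap1, which trims peptides in the endoplasmic reticulum, passed in no comparison (-0.37 in laser against bur, adjusted p = 0.0627).

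**Figure D3:**
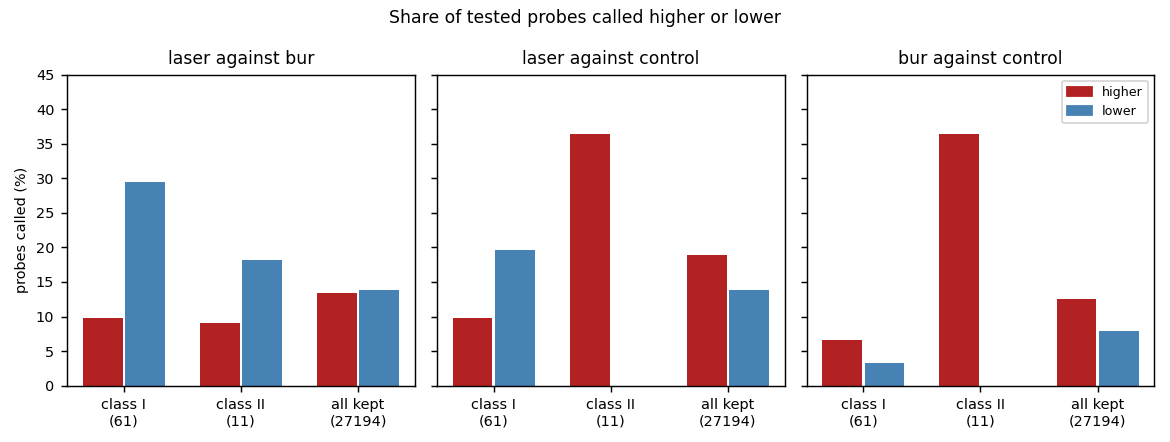
Share of tested probes called higher (red) or lower (blue) at an adjusted p under 0.05, for the 61 class I probes, the 11 class II probes and all 27194 tested probes in each comparison. Class I has 18 lower probes in laser against bur, and class II has 4 higher and 0 lower probes in both comparisons with control.

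RT1-CE5 and Cd80 were well above background on all 4 laser arrays and on no bur or control array, so their probes entered the test only through the laser group. The dimmest signal of any probe that cleared background was 1.59 to 1.93 on laser arrays, 2.19 to 2.75 on bur arrays and 2.02 to 3.09 on control arrays, on the log2 scale. The level in bur and control bone therefore has only a bound, and no p-value is given for either gene. RT1-CE5, a class I chain, gave 5.02, 4.42, 4.27 and 4.90 on laser arrays, 0.71, 0.71, 0.73 and 0.66 on bur arrays and 0.91, 1.06, 1.0002 and 0.94 on control arrays. A bound sets the mean of the laser arrays against, per dim array, the higher of the probe's own signal and that dimmest signal. On the quantile-normalised scale, RT1-CE5 was then at least 4.46-fold higher in laser than in bur and at least 4.61-fold higher than in control. These bounds hold for that scale only, since other treatments of the background gave smaller differences: the log2 values were 0.62 and 0.59 with normexp background correction, and 1.21 and 1.07 in the authors' deposited table.

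Cd80 and Cd86 are the B7 molecules that give T cells the costimulatory signal through Cd28. Cd80 read 4.78, 4.50, 3.79 and 4.40 on laser arrays, 1.68, 1.87, 1.82 and 1.86 on bur arrays and 0.70, 1.97, 0.88 and 0.85 on control arrays. The bound on the quantile-normalised scale was at least 3.65-fold higher in laser than in bur and at least 3.78-fold higher than in control. The log2 differences were 0.46 and 0.42 under normexp and 0.89 and 0.92 in the authors' deposited table, all smaller than the bounds. Cd86 read 3.10, 4.11, 2.596 and 3.01 on laser arrays, 3.70, 3.34, 3.23 and 3.81 on bur arrays and 2.24, 4.001, 3.41 and 2.53 on control arrays. Its groups overlapped and it passed in no comparison, at well above background on 4 laser, 1 bur and 1 control arrays.

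Cd40, the receptor through which helper T cells license antigen-presenting cells, had 3 tested probes that disagreed. The brightest (A_44_P1104205) read 13.07, 12.79, 13.03 and 12.80 on laser arrays, 11.24, 10.98, 10.80 and 10.32 on bur arrays and 11.81, 11.30, 11.44 and 10.43 on control arrays. On it, laser arrays were above all others, 4.25-fold against bur (2.79 to 6.49, adjusted p = 0.000262) and 3.20-fold against control (2.09 to 4.87, adjusted p = 0.000971). The other 2 probes gave laser minus bur differences of 0.02 and -0.09 and laser minus control differences of 0.03 and 0.15, none of which passed. The level of Cd40 after the laser is not settled by these probes. Of the 5 costimulation probes, 2 were higher and 0 lower in each comparison of the laser, and 0 were called in bur against control, in which 0 of the 3 genes passed. In the authors' deposited comparison, however, the brightest Cd40 probe was lower in bur than in control (-0.62, adjusted p = 0.0168). Over all tested probes, 18.9% were higher in laser against control and 13.4% in laser against bur, and 20.4% were called in bur against control. The 2 higher probes were Cd80, which was above background on the laser arrays only, and 1 of the 3 Cd40 probes.

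**Figure D4:**
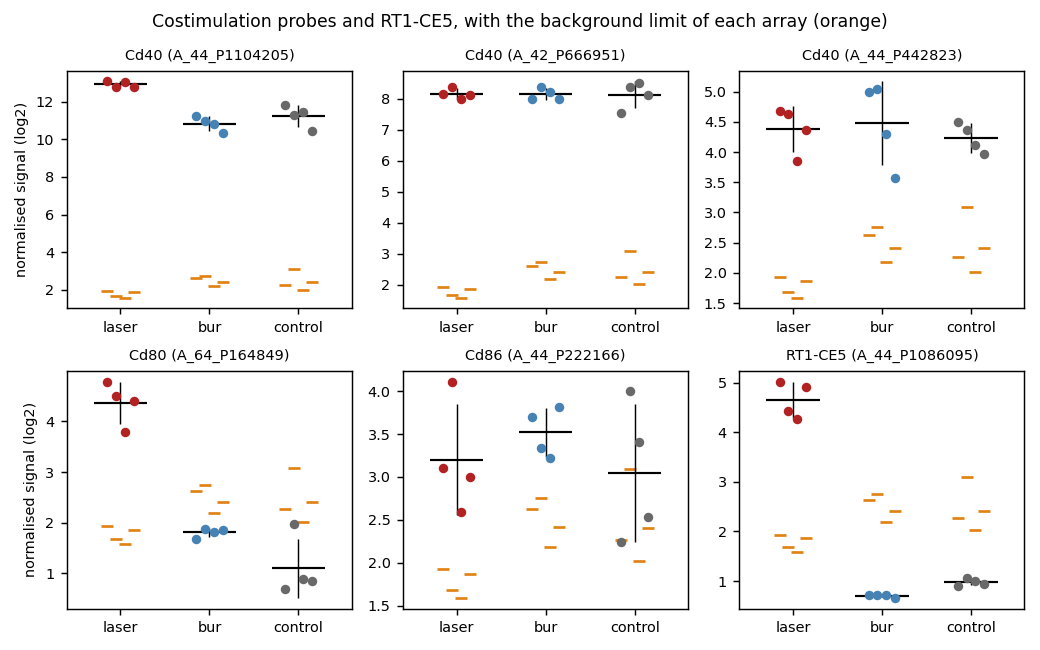
Log2 normalised signal of the 3 tested Cd40 probes, Cd80, Cd86 and RT1-CE5 on each array (points), with group mean and SD (black) and the lowest signal of any probe well above background on that array (orange dashes). Cd80 and RT1-CE5 lie under the orange dashes on all bur and control arrays, and the rise of Cd40 shows on 1 of its 3 probes.

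Genes around the pathway were followed in lists that the member rule did not use, but that were chosen with earlier results of these data known. For each list below, the share over all tested probes was 12.6% higher and 7.84% lower in bur against control. It was 18.9% higher and 13.9% lower in laser against control, and 13.4% higher and 13.9% lower in laser against bur. Of 8 endosomal processing genes, 6 were higher and 0 lower in bur against control, 2 higher and 0 lower in laser against control, and 0 higher and 4 lower in laser against bur. The cathepsin Ctsl read 12.04 ± 0.18 on laser, 14.02 ± 0.16 on bur and 11.74 ± 0.49 on control arrays (SD, n = 4 each), a bur minus control difference of 2.28. Lgmn, an endosomal asparagine-specific protease, gave 2.20 in bur against control and 1.63 in laser against control. The cathepsin Ctsd gave 1.58 in bur against control and Ifi30, the thiol reductase GILT, 1.07, and in laser against bur they gave -1.11 and -0.98.

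Of 10 interferon gamma pathway genes tested, 4 were higher and 0 lower in bur against control: the receptor chains Ifngr1 (1.04) and Ifngr2 (1.16), the chemokine Cxcl10 (2.49) and the GTPase Gbp2 (1.12). In laser against bur, Irf1, which acts on class I promoters, was lower (-0.81), as were Ifngr1 (-0.79) and Ifngr2 (-0.72). Ifng itself and Socs1 were below the background filter.

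Of 3 tested relatives of B7, Cd274, the inhibitory ligand PD-L1, read 8.49 ± 0.53 on laser, 10.65 ± 0.61 on bur and 8.23 ± 0.48 on control arrays (SD, n = 4 each). It was higher in bur against control (2.42) and lower in laser against bur (-2.15). Cd276 was higher in both treated groups against control (0.69 after the laser, 0.90 after the bur). Of 7 RFX, NFY and coactivator genes, which serve the X and Y boxes, only Rfx5 passed, lower in bur against control (-0.41). Of 6 peptide loading and folding genes, only Calr, calreticulin, passed, lower in both treated groups (-0.69 after the laser, -0.56 after the bur). Of 6 constitutive proteasome genes, Psmb5 was lower after the laser against bur (-0.37) and control (-0.48), Psmb6 was lower against bur (-0.42), and the others did not pass. Of 5 class I-like genes, Azgp1, a secreted protein with a class I fold, was higher after the laser against bur (2.22) and control (1.82), and the others did not pass.

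T cell markers were mixed. Of 8, 3 were higher and 0 lower in bur against control, namely Cd2 (2.66), Cd8a (2.50) and Cd8b (1.80), and Cd3d, Cd3e and Cd3g did not pass. In laser against control 1 was higher, Cd2 (1.64), and in laser against bur 1 was lower, Cd8a (-2.16). All 5 erythroid markers tested were lower in bur against control and 4 in laser against control, with a summed signal of 60676 to 87639 on laser, 53311 to 97404 on bur and 160039.8 to 183289 on control arrays. The part of these cells in the results on MHC genes was not tested.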

How the data were processed

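Per the labels' protocols, 200 ng of total RNA of each of 12 calvarial samples was labelled with Cy3 for one-colour Agilent arrays. Each deposited scanner file gives spot intensity values from Agilent Feature Extraction 11.0.1.1 (submitters' processing notes), already background-corrected, with flags for outliers and for spots well above background, per the file headers. The authors' deposited expression table holds quantile-normalised log2 values, and the authors' deposited comparison tables hold log2 fold changes and p-values. From that table, 21080 of 24920 entries carried a probe name and served as an alternative, and the rest were not used here. The arrays carry no counts, and their number limits the precision.

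Here, processed signals of non-control spots were log2 transformed and quantile normalised. Outlier spots were left out (19 probe values missing) and spots of a probe were averaged. Of 45598 probes, 27194 well above background on at least 4 of 12 arrays entered 1 limma 3.58.1 fit (R 4.3.3) of all arrays, with Benjamini-Hochberg adjustment per comparison. That fit was tested on simulated data. The members, gene lists and promoter motifs were chosen with earlier results of these data known. The result of 1 gene of the interferon gamma list is not reported here. The genes given array by array were the 6 of each role with the smallest p, plus B2m, Cd74, Ciita, Nlrc5, Cd80, Cd86 and Cd40, and a few others singled out after their values were seen (RT1-N3, RT1-M6-2, RT1-T24-3, Tap1). Replicate numbers were not taken as pairs in the main fit, and no arrays were duplicates. Alternatives covered scaling, background correction, filters, unit, fitted groups, array weights, a replicate block, the authors' values and arrays left out.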

Additional observations from a re-analysis of the deposited data

Results flagged for a closer look

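In 7 of 168 gene and group combinations, an array stood further from the other 3 than Dixon's 95% critical value for 4 values allows. Chance flags about 1 in 20 such groups. RT1-A read 13.07 on control array 1, against 12.65 to 12.72 on the other control arrays. RT1-CE11 read 8.66 on control array 3, against 8.15 to 8.23. RT1-CE13 read 10.83 on control array 1, against 11.09 to 11.12. Cd80 read 1.97 on control array 2, against 0.70 to 0.88, where none of the control arrays was well above background. RT1-M2 read 3.68 on laser array 3, against 4.99 to 5.13 on the other laser arrays, and RT1-N3 read 6.46 on that array, against 6.90 to 6.96. RT1-T24-4 read 12.93 on bur array 2, against 12.58 to 12.63 on the other bur arrays.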

How the results depend on the processing

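Of 51 calls of member genes, 22 were kept under every alternative run and 29 were lost under at least 1, and 0 turned direction. The 22 kept calls include those of RT1-CE5 and Cd80 in both laser comparisons. These probes passed the filter through the laser arrays alone, so their calls do not count as evidence of stability. Of 117 values that did not pass, 46 turned sign under some alternative and 26 gained a call. For all member probes, the 10 calls of bur against control became 17 with normexp, 6 with genes in place of probes, 3 with only the compared groups fitted, 5 with array weights and 5 without control arrays 1 and 4. For class I these 6 calls became 12, 2, 1, 1 and 2 under the same alternatives, and 3 with 75th percentile scaling. For class II the 4 calls became 2 with only the compared groups fitted. In the authors' deposited comparison of bur against control, 9 of 58 member probes were higher and 3 lower. The lower ones were RT1-CE11 (-0.69, adjusted p = 0.0162), RT1-Cl (-0.46, adjusted p = 0.0411) and the brightest Cd40 probe (-0.62, adjusted p = 0.0168). Without control arrays 1 and 4, laser against control gave 14 calls in place of 24 for all members, 10 in place of 18 for class I and 2 in place of 4 for class II. Leaving out 1 array at a time gave 4 to 14 calls for all members in bur against control, 12 to 25 in laser against control and 14 to 31 in laser against bur. For class I the ranges were 1 to 9, 7 to 20 and 11 to 26, and for class II 3 to 5, 3 to 5 and 0 to 3. Each array left out cost between 6 and 22 of the 51 calls. Same-numbered arrays were not taken as pairs in the main fit. Their deviations from the group mean correlated at 0.08 to 0.18 for bur and control, -0.05 to 0.29 for bur and laser, and -0.07 to 0.24 for control and laser. The medians were 0.14, 0.10 and 0.09, against -0.04, -0.02 and -0.02 for arrays of different number. Replicate number was also the column on the slide, so number and column cannot be told apart. With the replicate block, the counts for all members were 8, 21 and 27 in bur against control, laser against control and laser against bur, and 8 of the 51 calls were lost. Over all probes, bur against control gave 5554 calls, against 3243 with only the compared groups fitted and 3273 without control arrays 1 and 4. For the dim probes of Cd80 and RT1-CE5, normexp and the authors' deposited values gave differences under the bounds. The cause of these shifts was not tested.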
